A study of Mus musculus with 6 samples.

Results

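Transcripts of 8 genes that carry death signals from the cell surface were followed in sorted CD45- tumor cells: the death receptors Fas, Tnfrsf10b and Tnfrsf1a, the adaptor Fadd, the kinases Ripk1 and Ripk3, the pseudokinase Mlkl and the initiator caspase Casp8. They were all array probes whose accession matched one of these symbols, which gave 8 genes by 9 probes, of 22503 genes tested and 55681 gene probes in all. None of the 8 is an executioner caspase. The tumor cells came from MMTV-PyMT mammary carcinomas, in which a mammary promoter drives the polyomavirus middle T oncogene, and were either RANK+/+ or RANK-/- (constitutive loss of RANK, a TNF family receptor that signals to NF-kB and is the product of Tnfrsf11a). Late carcinoma cells were transplanted orthotopically into C57BL/6 hosts of the same strain, and live cells without the leukocyte protein CD45 were sorted from the grown tumors. The gate was set against dead cells as well as leukocytes, and by itself does not remove host stromal cells. The RNAs were compared as 3 pairs, each with 1 RNA of either genotype on the same array and with a repeat array (A and B), and with RANK-/- in Cy5 in pair 1 and in Cy3 in pairs 2 and 3. Ratios are log2 of the channel labelled RANK-/- over the channel labelled RANK+/+, as the mean of both arrays of a pair, and errors are SDs over pairs (n = 3).

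Death receptors are members of the tumor necrosis factor (TNF) receptor family that carry a death domain in the cytoplasm. Fas, bound by Fas ligand on T cells and NK cells, and Tnfrsf10b, the mouse receptor for TRAIL, recruit FADD, which brings caspase-8 molecules together so that they activate each other and then cleave the executioner caspases. Tnfrsf1a, the main TNF receptor, first assembles a complex with RIPK1 that turns on NF-kB, and turns to death only when that complex is destabilized. When caspase-8 is inactive, RIPK1 and RIPK3 join through a shared interaction motif, RIPK3 phosphorylates MLKL, and MLKL breaches the plasma membrane, a lytic death called necroptosis. All of these steps are set mainly by protein assembly and cleavage, which RNA levels do not report. Interferon-gamma and p53 are known inducers of several of these genes.

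Each of the 8 genes was read well above background in both channels on all 6 arrays. Their raw median signals lay between 177 for Ripk3 and 8146 for Tnfrsf1a, and the lowest ratio of signal to local background was 3.61, also for Ripk3. On each array 51.9% to 58.8% of gene probes were well above background in a given channel, and no spot was saturated. The transcript of the deleted gene went against its label. Tnfrsf11a was higher in the channel labelled RANK-/- in every pair, at log2 ratios of 2.03, 1.15 and 1.76 (mean 1.65 ± 0.45, limma adjusted p = 1.00). Where its probe lies relative to the deleted part is not given in the sources used here, so every direction below rests on the labels alone. The design text counts 3 biological replicates (naming RANK-/- for both groups) without saying that they were separate tumors, so p-values measure only the spread between these RNAs.

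No member passed the limma threshold (adjusted p under 0.05), and neither did any other gene: 0 of 22503 genes were called (0%). Before adjustment, 647 genes had a p under 0.05, and 0 of them were members. A rank product, which ranks genes within each pair, called 17 of 22501 genes (0.0756%), again with 0 members. Fas was the only member with the same sign in all 3 pairs. It was on the higher side, where 9.95% of all genes stood higher in every pair, and 9.65% stood lower in every pair, so 1 of 8 is close to the share over all genes. The means of 5 of the 8 members were above 0, against 51.0% of all genes.

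**Figure D1:**
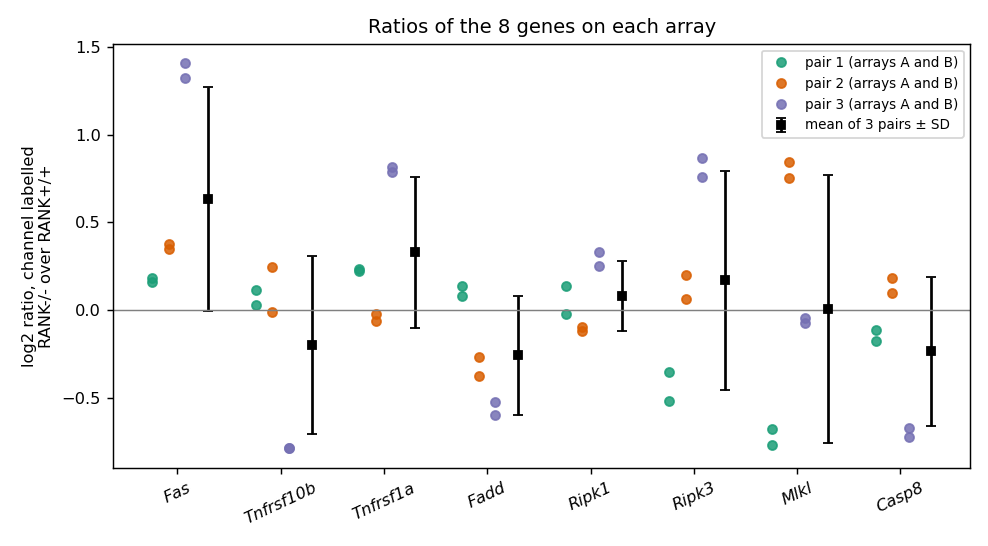
Log2 ratios of the 8 genes (vertical axis, channel labelled RANK-/- over RANK+/+) on arrays A and B of each pair (colored points), with the mean of the 3 pairs ± SD (black squares). The points of one color lie close together while the colors lie apart, and only Fas has every point above 0.

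The plot of ratios on each array separates 2 kinds of error. Arrays A and B gave the same sign in 22 of 24 combinations of member and pair, and their median gap was 0.0778. The exceptions were Ripk1 in pair 1 and Tnfrsf10b in pair 2, whose ratios were near 0. The technical SD of the members, from A and B, was 0.0194 to 0.110. The SD between pairs was 0.20 to 0.76 and exceeded the technical SD for 8 of 8 members. The median SD between pairs was 0.469 for the members and 0.329 over all genes. The disagreement described below is therefore between pairs, not between the 2 arrays of a pair. Arrays A and B of a pair share their dye arrangement, so the gap between them cannot show a dye effect. For every member, dye and pair 1 cannot be told apart. Across all genes the ratios of pairs 1 and 2 correlated at r = -0.279, those of pairs 1 and 3 at 0.178 and those of pairs 2 and 3 at -0.0792 (genes are not independent replicates).

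Fas had the largest mean ratio of the 8. Its normalized log2 intensities in the channel labelled RANK-/- were 9.64, 9.69 and 10.34 in pairs 1, 2 and 3, and in the channel labelled RANK+/+ they were 9.47, 9.33 and 8.98. The genotypes did not overlap, which held for no other member and for 3.69% of all genes in this direction and 3.77% in the other. The ratios were 0.17, 0.36 and 1.37, with a mean of 0.63 ± 0.64 (95% interval -0.14 to 1.40, limma adjusted p = 1.00), the 634th highest mean of 22503 genes. Before adjustment its limma p was 0.0855. In pair 3 the RANK-/- channel was 2.58-fold higher, the only one of 24 combinations of member and pair to reach 2-fold. Both spots of its single probe agreed there, at 1.27 to 1.46 over both arrays. Without pair 3 the mean was 0.27.

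The other death receptors did not have 1 sign in all pairs. Tnfrsf10b stood at 10.20, 10.13 and 9.87 in the RANK-/- channel and at 10.12, 10.02 and 10.66 in the RANK+/+ channel, so the genotypes overlapped. Its ratios were 0.07, 0.12 and -0.79 (mean -0.20 ± 0.51, 95% interval -0.85 to 0.45, limma adjusted p = 1.00). The negative mean came from pair 3, and without it the mean was 0.09. In Tnfrsf1a the RANK-/- levels were 12.81, 12.49 and 12.93 and the RANK+/+ levels 12.58, 12.53 and 12.13. Its ratios of 0.23, -0.04 and 0.80 (mean 0.33 ± 0.43, 95% interval -0.25 to 0.91, limma adjusted p = 1.00) came from a probe printed 10 times on each array, and the SD between those spots was only 0.0438 to 0.0982 per array. A second, dimmer Tnfrsf1a probe gave 0.18, 0.47 and 0.65 (mean 0.43 ± 0.24), so the probes disagreed in pair 2 and gave the same sign in pairs 1 and 3.

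**Figure D2:**
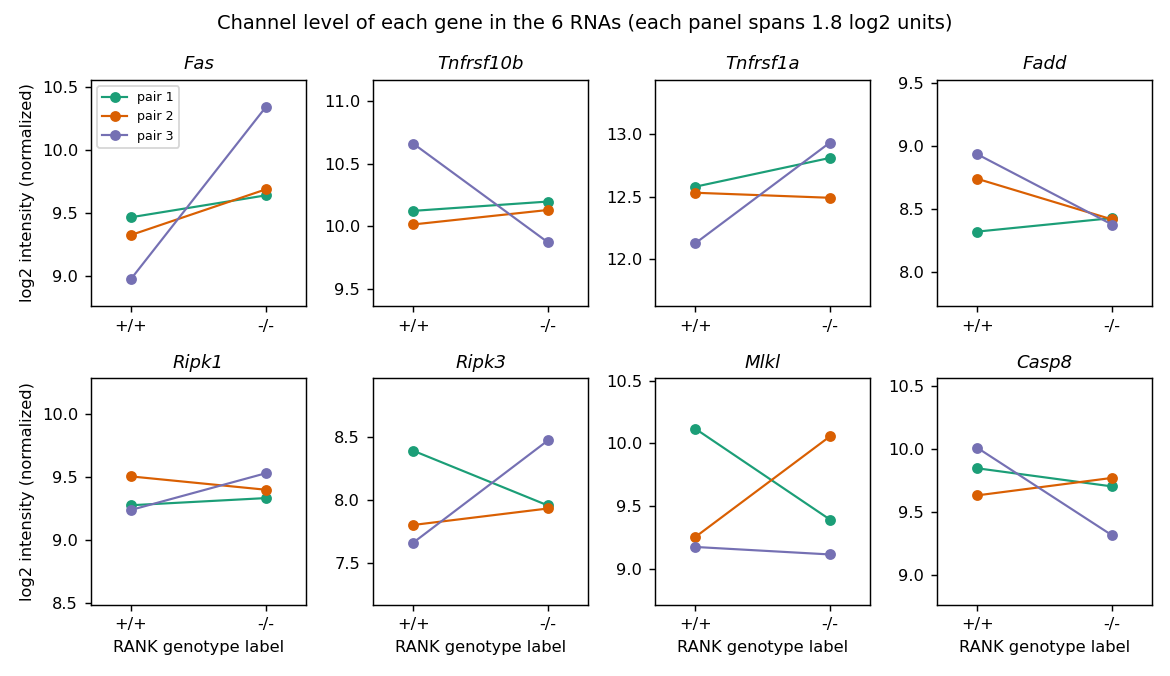
Normalized log2 intensity (vertical axis, each panel spanning the same range) of the 8 genes in the RANK+/+ and RANK-/- channels, with a line for each pair. All 3 lines run upward only for Fas, and the RANK+/+ levels of Fadd spread more than its RANK-/- levels.

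Fadd, the adaptor shared by Fas and the TRAIL receptor, was nearly level in the RANK-/- channel, at 8.43, 8.42 and 8.38 (SD 0.027). Its RANK+/+ levels of 8.32, 8.74 and 8.94 (SD 0.314) carried the spread. The lowest of them, in pair 1, was the only one read in Cy3, so dye and pair cannot be told apart here. The ratios were 0.11, -0.32 and -0.56 (mean -0.26 ± 0.34, 95% interval -0.77 to 0.25, limma adjusted p = 1.00). Casp8, the protease that FADD recruits, was read at 9.70, 9.77 and 9.31 in the RANK-/- channel and at 9.85, 9.63 and 10.01 in the RANK+/+ channel. Its ratios of -0.14, 0.14 and -0.70 (mean -0.23 ± 0.42, 95% interval -0.81 to 0.34, limma adjusted p = 1.00) were lowest in the pair in which Fas was highest. Adaptor and caspase therefore both had negative means, without passing the test and with 1 pair each on the other side.

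The kinases of the necroptosis branch differed from each other. Ripk1, which both NF-kB signaling and cell death use, varied least: 9.33, 9.40 and 9.53 in the RANK-/- channel against 9.27, 9.50 and 9.24. Its mean ratio was 0.08 ± 0.20 (0.06, -0.11 and 0.29 in the 3 pairs), and its 95% interval of -0.34 to 0.50 is the narrowest of the 8 (limma adjusted p = 1.00). Ripk3 stood at 7.95, 7.93 and 8.47 in the RANK-/- channel and at 8.39, 7.80 and 7.66 in the RANK+/+ channel. Its ratios of -0.44, 0.13 and 0.81 (mean 0.17 ± 0.62, 95% interval -0.59 to 0.92, limma adjusted p = 1.00) ran from lower to higher between pairs.

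Mlkl, the executor of necroptosis, had the widest spread. Its RANK-/- levels were 9.39, 10.06 and 9.12 and its RANK+/+ levels 10.12, 9.26 and 9.18. The ratios of -0.72, 0.80 and -0.06 cancelled to a mean of 0.01 ± 0.76 (95% interval -0.88 to 0.89, limma adjusted p = 1.00). Arrays A and B agreed in sign in each pair, so pairs 1 and 2 held opposite differences of similar size. Pair 1 was also the only pair with RANK-/- in Cy5, and dye and pair cannot be told apart.

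Members that varied together over the 6 RNAs fell on both sides. Of 28 pairs of members, the highest Pearson r of normalized levels was 0.875 for Fas with Tnfrsf1a, followed by 0.854 for Tnfrsf10b with Casp8 and 0.759 for Fas with Ripk3. The lowest were -0.886 for Ripk1 with Casp8 and -0.883 for Fas with Casp8. The median r of the 28 was -0.151. These values are descriptions over 6 RNAs that share arrays within a pair, and were not set beside those of other genes. Fas, Tnfrsf1a, Ripk1 and Ripk3 had their highest ratios in pair 3, and Tnfrsf10b, Fadd and Casp8 their lowest.

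Other cell types and signals differed between the same pairs. The fibroblast markers (8 of 8 tested, all above background throughout) had pair medians of 0.36, 0.57 and 1.97, and 3 of them were higher in all 3 pairs: the collagen genes Col1a1 (mean 0.97 ± 0.86) and Col1a2 (1.28 ± 0.96), and the growth factor receptor Pdgfra (0.54 ± 0.62). The epithelial markers had medians of 0.29, -0.51 and 0.73 and the endothelial markers 0.19, -0.25 and 0.55, with Cldn5 higher in all 3 pairs (mean 0.55 ± 0.36). The leukocyte markers, of which 7 of 11 were above background on all arrays in both channels, had medians of -0.46, 0.15 and 0.13, and Ptprc, which encodes CD45, was above background on 5 RANK-/- and 4 RANK+/+ arrays. Pair 3, with the highest ratios of Fas, Tnfrsf1a, Ripk1 and Ripk3, thus also had the highest medians of the fibroblast, epithelial and endothelial markers. Single markers differed, as the fibroblast marker Pdgfrb was at 1.60, -1.03 and 0.76 in the 3 pairs. Each fibroblast marker not named above as higher had a pair below 0. Of the epithelial markers, Epcam, Cdh1 and Cldn3 were higher in pair 1 than in pair 3. The other epithelial markers were higher in pair 3 than in pair 1. The part of any cell type in the result was not tested. In such bulk RNA, fewer cells of a type and less RNA per cell cannot be told apart.

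**Figure D3:**
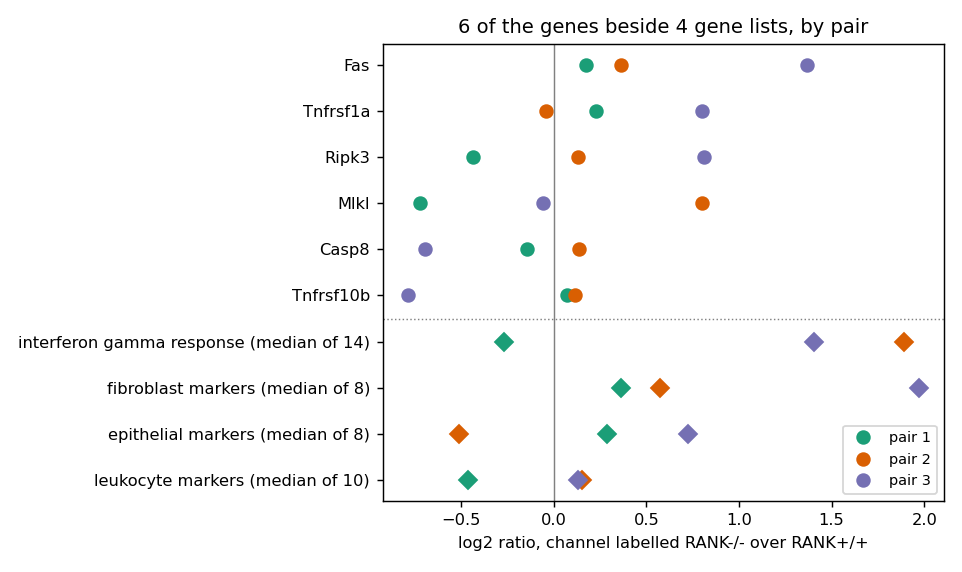
Log2 ratios (horizontal axis, channel labelled RANK-/- over RANK+/+) of 6 of the genes in pairs 1, 2 and 3 (circles) beside the medians of 4 gene lists in the same pairs (diamonds). Pair 3 holds the highest Fas, fibroblast and epithelial values, and pair 1 the lowest Mlkl, interferon gamma and leukocyte values.

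The interferon-gamma response genes (14 tested) had pair medians of -0.27, 1.89 and 1.41, and 2 of 14 were higher in all 3 pairs. They were Socs1, a feedback inhibitor of the pathway (mean 0.24 ± 0.17), and Irf1, a transcription factor induced by interferon-gamma, at 0.29, 1.53 and 1.63 (mean 1.15 ± 0.75, limma adjusted p = 1.00). Mlkl was low in pair 1 and high in pair 2 like most of these genes, but not high in pair 3. Of the p53 targets, 1 of 9 was higher and 2 of 9 were lower in all 3 pairs. These were Cdkn1a, a cell cycle inhibitor (mean 0.79 ± 0.49), and Gdf15 (-1.03 ± 1.17) and Plk2 (-0.50 ± 0.25). A second Cdkn1a probe read 0.63, 0.94 and -0.82, so the probes disagreed in pair 3. Tnfrsf10b, itself a p53 target, had 0.07, 0.12 and -0.79.

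The promoters were read because interferon-gamma acts through GAS sites, of the form TTCNNNGAA, and interferons act through the interferon-stimulated response element (ISRE). RefSeq windows on GRCm38.p6, from 250 bases before to 50 after the start, were given for 7 of the 8 members, Tnfrsf10b being the exception. Over all 32851 windows, searched on both strands, 8.3% held a GAS and 3.44% an ISRE. A GAS was found in the Fas and Tnfrsf1a windows and in one of the Ripk1 windows, which held 2 of them and an ISRE that overlaps one. The Casp8, Fadd, Mlkl and Ripk3 windows held neither motif. The upstream bases of Fas and Tnfrsf1a are printed below beside those of Irf1, whose GAS is well known, each on the plus strand with the GAS in capitals. A match is a description of letters and not evidence that a factor binds there.
Fas, chr19:34290409-34290658: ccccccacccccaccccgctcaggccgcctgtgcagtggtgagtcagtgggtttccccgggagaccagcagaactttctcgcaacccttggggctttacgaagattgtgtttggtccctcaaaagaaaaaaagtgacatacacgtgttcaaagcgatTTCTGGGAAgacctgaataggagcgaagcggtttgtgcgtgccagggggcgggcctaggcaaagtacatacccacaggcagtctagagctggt
Tnfrsf1a, chr6:125349473-125349722: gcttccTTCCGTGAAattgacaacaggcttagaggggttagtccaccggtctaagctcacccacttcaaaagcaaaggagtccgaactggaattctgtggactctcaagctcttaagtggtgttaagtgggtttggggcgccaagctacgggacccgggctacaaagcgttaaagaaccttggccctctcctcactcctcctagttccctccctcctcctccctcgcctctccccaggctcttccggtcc
Irf1, chr11:53769764-53770013: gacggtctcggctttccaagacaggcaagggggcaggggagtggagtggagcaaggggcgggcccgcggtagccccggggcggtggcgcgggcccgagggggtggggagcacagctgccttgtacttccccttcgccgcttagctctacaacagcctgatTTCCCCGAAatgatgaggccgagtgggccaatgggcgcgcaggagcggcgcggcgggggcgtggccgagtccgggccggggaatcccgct
Counted from the start, the motif began at -93 in Fas, at -90 in Irf1 and at -244 in Tnfrsf1a. The ratios in pair 2, where the interferon-gamma list had its highest median, were 0.36 for Fas, -0.11 for Ripk1 and 1.53 for Irf1. Tnfrsf1a was at -0.04 by its brightest probe and at 0.47 by the other. The members with neither motif were at 0.80 for Mlkl, 0.14 for Casp8, 0.13 for Ripk3 and -0.32 for Fadd.

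The ligands did not keep 1 direction over the pairs, with medians of -0.37, 0.39 and 0.59 in pairs 1, 2 and 3. Fasl, the ligand of Fas, was well above background on 0 RANK-/- and 2 RANK+/+ arrays of 6 and was not tested, and Lta was also not tested. Tnf had ratios of -0.90, 1.02 and 1.23 (mean 0.45 ± 1.17). Tnfsf10, which encodes TRAIL, had -0.16, 0.59 and 0.71 (mean 0.38 ± 0.47). Of 4 ligands tested, 0 were higher or lower in all 3 pairs by the brightest probe. For the ligand gene Tnfsf12 that probe was at 0.32, -0.21 and 0.48. A second Tnfsf12 probe was higher in all 3 pairs, at 0.95, 0.16 and 0.54.

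Among the other TNF family receptors, 3 of 7 tested were higher in all 3 pairs (Tnfrsf21, Tnfrsf25 and Tnfrsf1b) and 0 were lower. Tnfrsf1b was at 0.035 in pair 1 and 0.007 in pair 3, within its technical SD of 0.047. Pdgfrb, Epcam, Cdh1, Cldn3, Socs1 and Tnfsf12 above were picked out after their values were seen. So were, from here on, Tnfrsf25, Tnfrsf1b, Faf1, Spata2, Birc3, Ikbke, Map3k7, Rock1, Dffa, Bid, Chmp4b and Pgam5. Of the 3 receptors higher in all pairs, the one with a mean of at least 0.5 was Tnfrsf21 (death receptor 6) at 1.27, 1.00 and 0.29 (mean 0.85 ± 0.51). It was highest in pair 1, where Fas was lowest. Of 9 adaptors, 1 was higher and 1 lower in all 3 pairs, the higher one being Traf5 (mean 0.52 ± 0.43) and the lower one Faf1, whose second probe was at 0.18 in pair 2. By its brightest probe Faf1 was at -0.0086 in pair 2, within its technical SD of 0.025.

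Regulators of death receptor signaling, among them brakes, ubiquitin ligases and deubiquitinases, were measured by 18 genes, of which 4 were higher (Tnfaip3, Spata2, Birc3 and Ikbke) and 1 was lower (Map3k7) in all 3 pairs by the brightest probe. A Spata2 probe read -0.17 in pair 1, and both other Map3k7 probes were above 0 in pair 2, at 0.10 and 0.08. Ikbke was at 0.009 in pair 3 (technical SD 0.096). By its brightest probe Map3k7 was at -0.013 in pair 2 (technical SD 0.076). Both signs therefore lay within the technical SD. Tnfaip3 encodes A20, a ubiquitin-editing enzyme that NF-kB induces and that dampens TNF signaling, and it had ratios of 0.33, 1.66 and 1.03 (mean 1.01 ± 0.66). Cflar, which encodes the caspase-8 inhibitor c-FLIP, had 0.00, -0.20 and 0.38 (mean 0.06 ± 0.30). Its other probes were above 0 in all 3 pairs, with means of 0.14 and 0.12. They read 0.08, 0.04 and 0.30, and 0.04, 0.006 and 0.30. Neither Tnfaip3 nor Cflar passed the limma threshold (adjusted p = 1.00).

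Of the substrates and helpers of the execution phase, Rock1, a kinase that drives membrane blebbing, and Dffa, the inhibitor of the nuclease that cuts DNA in apoptosis, were higher in all 3 pairs. Their means were 0.22 ± 0.13 for Rock1 and 0.14 ± 0.17 for Dffa. In pair 1 both ratios lay within the technical SD, at 0.08 for Rock1 (technical SD 0.10) and 0.03 for Dffa (technical SD 0.13). A second Rock1 probe, at 0.08, 0.09 and -0.42, and a second Dffa probe, at -0.17, 0.29 and 0.31, did not keep 1 sign, while the third Dffa probe did (0.09, 0.04 and 0.11). Bid, which caspase-8 cleaves to carry the signal to mitochondria, was lower in all 3 pairs at -0.18, -0.08 and -0.21 (mean -0.15 ± 0.07). Casp6 had 0.89, -0.09 and 0.16 (mean 0.32 ± 0.51). None of these 4 genes passed the limma threshold (adjusted p = 1.00).

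Of 10 necroptosis partners, 2 were higher (Eif2ak2 and Chmp4b) and 1 was lower (Pgam5) in all 3 pairs by the brightest probe. Both other Chmp4b probes were below 0 in pair 1, at -0.38 and -0.46. Zbp1, a sensor of Z-form nucleic acid that activates RIPK3, had -0.70, 1.39 and 1.03 (mean 0.57 ± 1.12), and its second probe had -0.89, 1.65 and 0.58. Zbp1 and Mlkl were both lower in pair 1 and higher in pair 2. Eif2ak2, the RNA-activated kinase PKR, had 0.20, 0.78 and 0.79 (mean 0.59 ± 0.34). Over the 60 tested of 63 other pathway genes, 13 were higher and 4 lower in all 3 pairs. The shares over all genes, to be set beside this and each list count above, were 9.95% higher and 9.65% lower. The pair medians of the 60 were -0.02, 0.15 and 0.18, and 0 passed the limma threshold.

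**Figure D4:**
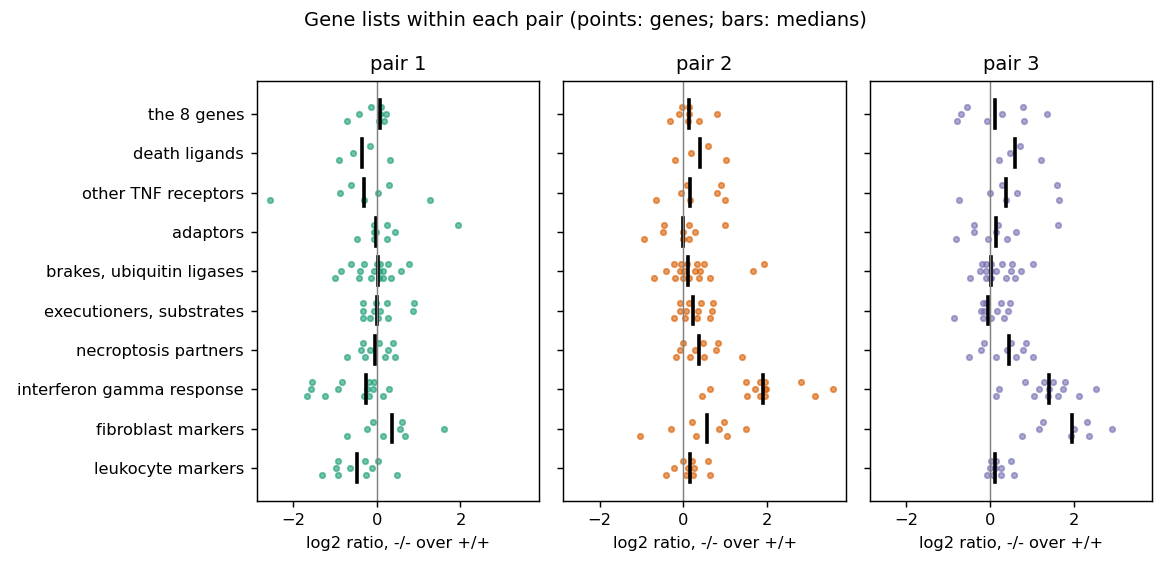
Log2 ratios (horizontal axis, -/- over +/+) of the tested genes of each list in pairs 1, 2 and 3, with medians as black bars. The 8 genes stay near 0 in the median of every pair while single members lie on both sides, and the interferon gamma response list moves from -0.27 in pair 1 to 1.89 in pair 2.

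The medians of the 8 genes were 0.07, 0.12 and 0.12 in the 3 pairs, and 5, 5 and 4 of them were above 0. Over all genes the pair medians were 0.02, -0.01 and 0.00. These medians hide members on both sides of 0, which in pair 3 ran from -0.79 for Tnfrsf10b to 1.37 for Fas.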

How the data were processed

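RNA of sorted CD45- cells was hybridized to 6 two-color Agilent mouse arrays, as 3 pairs with 2 technical arrays each. The authors extracted spots with Agilent Feature Extraction 10.7.3.1, and the deposited files hold median intensity and local background intensity per spot, not normalized. The series-wide file holds log2 ratios normalized by the authors and served as an alternative, as did the processed signals. The study also names a spatial loess, run as an alternative, and dye swaps, which the labels do not show within a pair.

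With limma 3.58.1 in R 4.3.3 (with the data.table package, version 1.17.8), intensities were corrected by normexp (offset 50) and normalized by intensity loess and Aquantile. Control spots (3671 of 62976) and 212 to 260 outlier spots per array were left out, spots of a probe averaged and arrays A and B averaged. A probe was kept if, in one genotype, arrays A and B of 2 or more pairs read it well above background. The brightest probe stood for a gene. Symbols came from RefSeq GRCm38.p6 for 28026 of 55681 probes, and the array grid names mm9, so genes carry no coordinates. Ratios were tested by limma (intercept only, two-sided, Benjamini-Hochberg, threshold 0.05) over 22503 genes. Of these, 14673 had a RefSeq symbol. The others were counted under their name on the array, so a gene may be counted more than once in the shares over all genes. With 3 pairs, an exact two-sided sign-flip test cannot go below p = 0.25. A rank product used 500 random draws. All 6 arrays lay on a single slide. The number of arrays limits precision.

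The members and gene lists were chosen with earlier results of these data known. Genes were named by rule: all members, Tnfrsf11a, list genes with 1 sign in all pairs and an absolute mean of at least 0.5, and Casp6, Cflar, Fasl, Tnfsf10, Tnf, Zbp1 and Irf1. A few others were named after their values were seen, as stated there. Some genes the rule names are not reported here. The members' protein sequences were not used here.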

Additional observations from a re-analysis of the deposited data

How the results depend on the processing

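Over 19 alternatives no member passed the limma threshold, and the lowest adjusted p of a member was 0.657. The signs of Fas (0.27 to 0.86), Tnfrsf1a (0.07 to 0.51), Fadd (-0.44 to -0.11) and Casp8 (-0.42 to -0.0027) held under each alternative. Several alternatives could not turn a sign: the filters on dim probes, the random block, no replicate block, the rank product and robust eBayes. They change only p-values or the set of genes tested, and left these means as they were. Averaging probes could not alter Fas, Fadd or Casp8, each read by a single probe. Mlkl, with a mean near 0, turned to -0.17 under median centring, -0.0029 with spatial and intensity loess, -0.0197 on array B only and -0.18 with a term for dye orientation. The dye term gave 0.52 for Fas, 0.02 for Ripk3 and -0.17 for Fadd. Ripk1 turned to -0.11 under median centring, which moved the median of all genes to -0.14. Leaving out 1 pair at a time gave -0.39 to 0.37 for Mlkl (-0.39 without pair 2), -0.36 to 0.0949 for Tnfrsf10b, -0.0244 to 0.17 for Ripk1 and -0.15 to 0.47 for Ripk3, the other reversals all being without pair 3. It left 2 to 5 members with 1 sign in both remaining pairs. Averaging all probes of a gene gave 2 members with 1 sign in all pairs in place of 1.

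With the 6 arrays as replicates and the pair as a random block, 13 genes passed (7 higher), among them Tnfrsf11a at 1.65 (adjusted p = 0.0196), at a consensus correlation within pairs of 0.962. The rank product called 17 genes (10 higher). No replicate block, with the channels as 3 and 3 samples, left the pairing out and gave 0 genes past the threshold in limma and 826 at unadjusted p under 0.05. Deviations of same-numbered channels correlated at -0.0344, -0.218 and -0.0410. Unadjusted counts ran from 0 with robust eBayes to 1876 without pair 2, against 647. The cause of these differences was not tested. Slide as a block was not run, since there was 1 slide. Ripk3 and Fadd had the lowest signals over background, 3.61 and 5.75 times at the lowest.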
